A study of Mus musculus with 24 samples.

Results

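The genes of the transcription machinery itself were followed in the mouse retina after hypoxic preconditioning. They are the subunits of the nuclear RNA polymerases and the mitochondrial polymerase, the subunits of Mediator, and the general transcription factors. A probe set (the short array probes read as 1 transcript) was taken when its gene symbol in the array annotation begins with Polr, Gtf2, Gtf3 or Snapc, or with Med or Taf followed by a digit. This gave 214 probe sets of 107 genes, out of 45037 probe sets of 18193 genes. The rule uses names and no measured value.

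RNA polymerase II transcribes protein-coding genes, RNA polymerase I the large ribosomal RNAs, and RNA polymerase III transfer RNAs and other short RNAs. General transcription factors bring each polymerase to its start sites: TFIID and its TBP-associated factors (Taf genes), TFIIA, TFIIB, TFIIE, TFIIF and TFIIH serve polymerase II, SL1 serves polymerase I, and TFIIIA and TFIIIC serve polymerase III. The small nuclear RNA activating complex (SNAPc) is needed for small nuclear RNA genes of both polymerase II and polymerase III. Mediator, a large complex with head, middle and tail modules and a detachable kinase module, carries signals from gene-specific regulators to polymerase II. In other cells severe oxygen shortage is known to lower RNA synthesis as a whole.

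Retinas came from BALB/c mice of unstated age. Hypoxic mice breathed 6% oxygen for 6 h, returned to room air in darkness, and were killed after 0, 2, 4 or 16 h of reoxygenation, while normoxic control mice of each time point stayed in room air. All mice carried the light-sensitive variant of Rpe65 that the study's methods name. Each of the 24 arrays held RNA of 1 pool of 3 retinas from 3 mice, with 3 pools in each of the 8 groups. The values are log2 signals, normalized between arrays by the authors, so every change is relative to the other transcripts on the array, and in a whole tissue fewer cells of a type and less RNA per cell cannot be told apart.

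Outside the hypoxic retinas of 0 h, the arrays farthest from the others were normoxia 0 h replicate 2 and normoxia 16 h replicate 3. As a measure of RNA quality, the 5′ control probe set of beta-actin was subtracted from the 3′ one. This log2 difference was 1.19 on normoxia 16 h replicate 3 and 0.55 to 0.78 on the other arrays. For Gapdh it was -0.04 on that array and -0.21 to -0.08 on the others. All 7 rod markers on the array were above the signal threshold on every array, and their mean lay between 13.1 and 13.4. Of 9 markers of the retinal pigment epithelium (RPE), the layer next to the retina, 7 could be tested and all 7 were higher in hypoxic retinas at 0 h. Only 2 of the 9 were above the threshold on every array, and a marker could be tested through its hypoxic mean alone. Over all 9, tested or not, the median difference was 2.60 on the log2 scale. Their mean levels were 8.85 to 8.92 in hypoxic against 6.38 to 6.84 in normoxic retinas. No RPE marker was called at a later time point. Lens markers had mean levels of 11.1 to 13.1 in hypoxic and 7.96 to 12.2 in normoxic retinas at 0 h, so the treatments overlapped. Their median difference was 1.60 at 0 h and -0.26, -0.43 and -1.09 at 2, 4 and 16 h, with no lens marker called. Erythroid markers were all below the threshold. The part of these cells in the changes below was not tested.

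Immediately after hypoxia, polymerase, Mediator and factor genes moved in both directions. Of the 147 member probe sets bright enough to be tested at 0 h (the mean of either treatment at or above a log2 signal of 6.69), 28 rose and 30 fell at a limma adjusted p under 0.05, together 39.5%. Over all probe sets tested 32.4% changed, 15.2% higher and 17.2% lower. A probe set could be tested through the mean of 1 treatment alone. Of the 28 that rose, 3 were too dim to be tested at 2 h. Hypoxic and normoxic values of the members did not overlap in 77 probe sets (52.4%, against 45.4% of all probe sets), and 73 passed an unadjusted p under 0.05, as 42.1% of all probe sets did. The median difference was -0.02 for the members and -0.01 for all probe sets, and the differences ran from -1.16 to 0.97. In 3 probe sets the change was more than 2-fold, and all 3 fell. They belong to Snapc3 and Med20.

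After 2 h the picture was one-sided. Of 144 member probe sets tested, 29 were higher (20.1%) and 7 lower (4.86%), together 25%, while over all probe sets 16.6% changed, 9.19% higher and 7.38% lower. The median difference was 0.13 for the members and 0.01 for all probe sets, and 111 of the 144 differences were above 0. Hypoxic values lay above all normoxic values in 50 probe sets and below them in 11, which is 42.4% without overlap against 34.8% of all probe sets. Over all probe sets, differences above 0 and the direction of values without overlap were not counted, here or at 4 h. At the same time point the mean of the rod markers was 13.1 to 13.2 in hypoxic and 13.3 to 13.4 in normoxic retinas, without overlap. Of the rod markers 1 of 7 was called lower, with a median difference of -0.13, and 1 marker each of cones and bipolar cells was called lower. The rod mean was also lower without overlap at 0 h (13.35 to 13.39 against 13.42 to 13.44) and 4 h (13.27 to 13.33 against 13.34 to 13.41), with no rod marker called. At 0 h 1 marker each of cones and bipolar cells was called lower, and at 4 h 2 cone markers were. Of endothelial markers 1 was called lower at each of 0, 2 and 4 h. At 0 h 1 marker each of Mueller glia, ganglion cells and skeletal muscle was called higher. The mean of the ganglion cell markers was higher without overlap at 0 h (9.53 to 9.60 against 9.31 to 9.48) and 2 h (9.42 to 9.50 against 9.30 to 9.40). Cone markers at 2 h ran from -0.29 for Pde6h to 0.25 for Opn1mw. The part of these cell types in the rise of the members was not tested. An unadjusted p under 0.05 was met by 58 members and by 30.2% of all probe sets. At 4 h only the 2 probe sets of Taf4b were called, both higher, which is 1.39% of the members against 1.43% of all probe sets (0.876% higher and 0.551% lower). Hypoxic and normoxic values did not overlap in 41 members, 37 of them with hypoxia above, or 28.5% against 27.3% of all probe sets. At 16 h no member was called by limma, as no probe set of the array was (0%), and 22 did not overlap (15.3%, against 11.1%). At an unadjusted p under 0.05, 31 members passed at 4 h and 5 at 16 h, where 15.6% and 6.36% of all probe sets did.

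The plot of log2 changes by complex shows how these calls were spread. By its brightest probe set, each gene gave 1 value, and 99 of the 107 genes were tested. At 0 h 19 genes were higher and 20 lower (all genes 15.2% and 18.7%), and at 2 h 18 were higher and 6 lower (all genes 10.3% and 8.25%). At 4 h 1 gene was higher and none lower (all genes 0.934% and 0.646%).

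**Figure D1:**
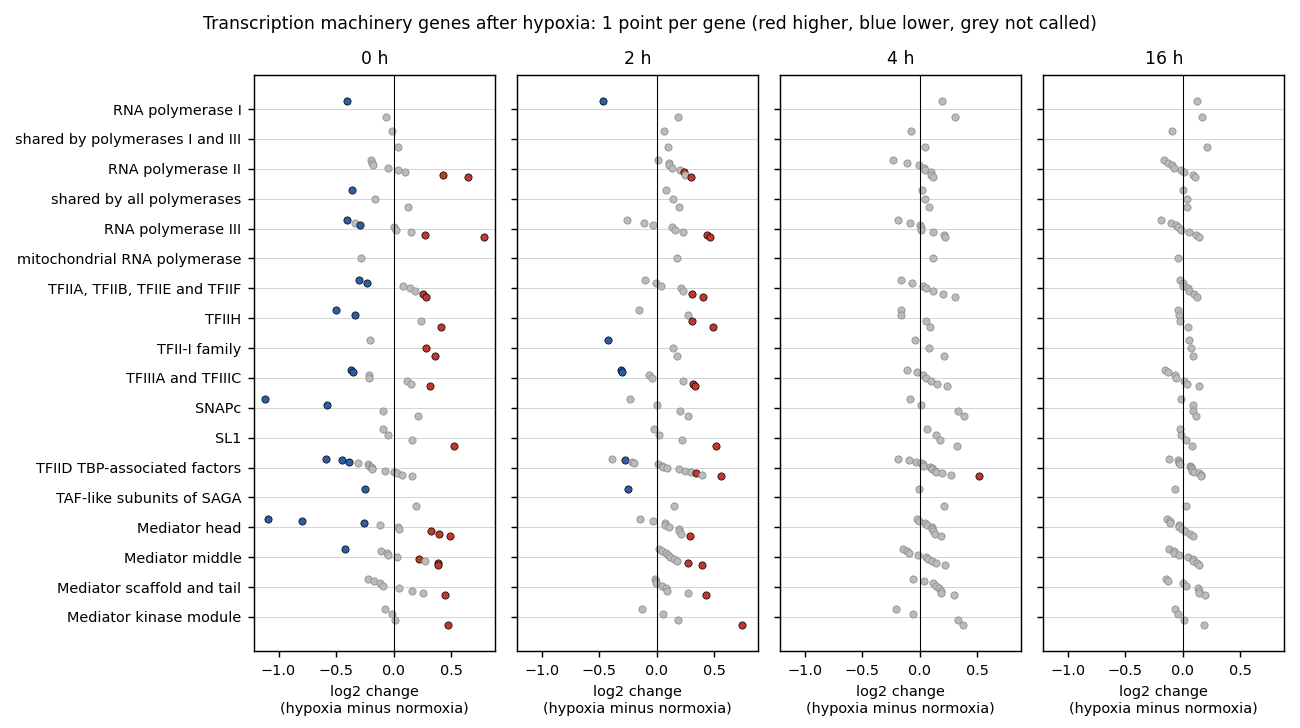
Log2 difference between hypoxic and normoxic retinas for each gene of the transcription machinery (brightest probe set), by complex, in 1 panel for each time point. Red points were called higher, blue points lower and grey points were not called. Red and blue mix at 0 h, red outnumbers blue at 2 h, Taf4b alone is called at 4 h and nothing at 16 h.

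How far these calls rest on single arrays was counted by leaving out each of the 6 arrays of a time point in turn. Of the calls at 0 h, 17 of 28 higher and 14 of 30 lower were kept in every such fit, and of those at 2 h 15 of 29 higher and 2 of 7 lower. The 2 h count is the more dependent one: without hypoxia 2 h replicate 1, 18 members were higher and 2 lower. Leaving out hypoxia 2 h replicate 3 or normoxia 2 h replicate 2 gave 3 lower calls at 2 h, and leaving out normoxia 2 h replicate 3 gave 4. At 0 h the higher calls were fewest, 20, without hypoxia 0 h replicate 3, and the lower calls fewest, 20, without hypoxia 0 h replicate 1. Calls over all probe sets were not counted in these fits. Each call named below was kept without any 1 array of its time point, unless the arrays that end it are given beside it.

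The largest changes of all members were in SNAPc. Snapc3 encodes a subunit that contacts DNA at small nuclear RNA promoters, and Snapc1 encodes another subunit of the complex. In hypoxic retinas at 0 h the brightest Snapc3 probe set read 8.20, 8.05 and 8.01, and in normoxic retinas 9.20, 9.18 and 9.23. The hypoxic values were all far below the normoxic ones, with no overlap, and the difference was -1.12 (SE 0.09, adjusted p = 7.01e-09). The second probe set of Snapc3 by brightness read 7.05, 6.85 and 6.79 against 7.86, 8.13 and 8.19, a difference of -1.16 (SE 0.15, adjusted p = 3.66e-06). The dimmest tested probe set gave -0.23 (adjusted p = 0.322). Probe sets of 1 gene can read different transcript ends, so the 3 values need not measure the same RNA.

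Snapc1 read 7.33, 7.47 and 7.36 in hypoxic and 7.95, 7.89 and 8.05 in normoxic retinas at 0 h, again without overlap (-0.58, SE 0.08, adjusted p = 7.8e-06). Snapc2 and Snapc4, which encode the other tested subunits, gave -0.09 (adjusted p = 0.565) and 0.21 (adjusted p = 0.27), and Snapc5 was below the signal threshold. SNAPc therefore had 2 of 4 tested genes lower at 0 h, where 18.7% of all genes were. None was called at any later time point. Of all genes 10.3% were higher and 8.25% lower at 2 h, 0.934% and 0.646% at 4 h, and 0% at 16 h. The brightest Snapc3 probe set at 2 h read 8.94, 9.20 and 9.21 against 9.31, 9.34 and 9.40, still without overlap, at -0.23 (adjusted p = 0.0663). By 4 h it read 9.36, 9.32 and 9.31 against 9.33, 9.36 and 9.26, and the treatments overlapped.

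The bases in front of the transcription start are shown for the 2 SNAPc genes that fell and for Med20, Polr2a and Polr3k, which were picked by hand. They are shown because hypoxia-inducible factor (HIF) binds DNA at the core letters ACGTG or GCGTG. The stretches are the last 140 bases before the start, 5′ to 3′ on the strand of the gene, taken from RefSeq on build GRCm38.p6. Capitals mark ACGTG or GCGTG on either strand (GCGTG on the other strand reads CACGC), and in Polr2a the TATA box letters TATAAA.
Snapc3, chr4:83417584-83417723, forward strand: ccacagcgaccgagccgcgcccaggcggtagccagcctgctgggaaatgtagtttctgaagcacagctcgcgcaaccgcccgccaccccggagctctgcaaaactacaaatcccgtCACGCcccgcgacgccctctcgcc
Snapc1, chr12:73964357-73964496, forward strand: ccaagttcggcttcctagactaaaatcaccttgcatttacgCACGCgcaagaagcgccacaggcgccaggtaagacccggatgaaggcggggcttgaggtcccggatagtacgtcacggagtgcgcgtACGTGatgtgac
Med20, chr17:47611445-47611584, forward strand: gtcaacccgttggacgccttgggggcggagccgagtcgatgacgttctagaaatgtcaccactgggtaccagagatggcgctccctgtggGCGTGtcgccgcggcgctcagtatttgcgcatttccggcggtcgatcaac
Polr2a, chr11:69758634-69758773, reverse strand: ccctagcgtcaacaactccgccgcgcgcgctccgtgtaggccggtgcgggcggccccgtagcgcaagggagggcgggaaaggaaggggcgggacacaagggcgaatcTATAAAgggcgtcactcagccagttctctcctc
Polr3k, chr2:181864220-181864359, forward strand: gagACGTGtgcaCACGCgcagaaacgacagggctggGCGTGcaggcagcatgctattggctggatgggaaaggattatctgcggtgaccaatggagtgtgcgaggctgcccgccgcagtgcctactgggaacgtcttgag

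Counted from the start, with the last base before it at -1, Snapc3 holds GCGTG on the other strand from base -24 and Med20 GCGTG from base -50. Snapc1 holds GCGTG on the other strand from base -99 and ACGTG from base -12, and a further ACGTG, not in capitals, begins at base -2 and runs past the start. Polr3k holds ACGTG from base -137 and GCGTG from bases -128 (other strand) and -104. In Polr2a TATAAA begins at base -33, and neither HIF core was found in the window searched. These matches are descriptions of letters and no evidence of binding. In the window from 250 bases before to 50 bases after the start, available for 95 of the 107 genes, ACGTG on either strand was found in 35.8% of member genes and in 30.5% of the 8301 genes tested at 0 h, and GCGTG in 63.2% and 57.9%. Among members, ACGTG was present in 8 of 17 genes higher at 0 h, in 9 of 17 lower at 0 h and in 12 of 41 with no call at 0 h or 2 h. GCGTG was present in 8 of 17, 10 of 17 and 30 of 41 of these genes, fewest among those higher at 0 h. TATAAA was found in 14.7% of member genes and 8.6% of genes tested, and CCGGAAGT, the letters that ETS factors bind, in 20% and 9.55%.

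**Figure D2:**
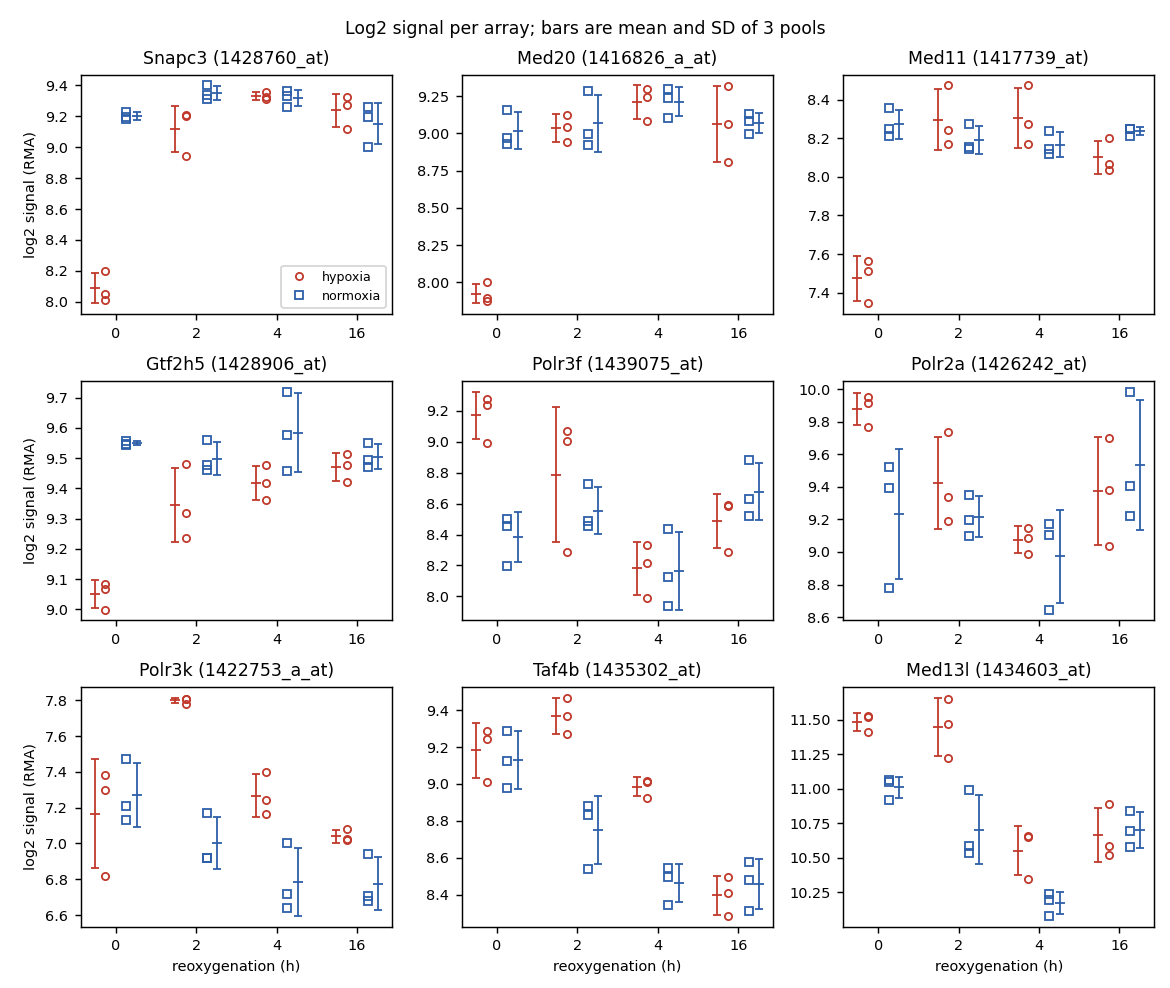
Log2 signal of each array (points) with the mean and SD of each group of 3 arrays for 9 members at 0, 2, 4 and 16 h, hypoxic and normoxic retinas side by side. Snapc3, Med20, Med11 and Gtf2h5 lie below their controls at 0 h, Polr3f and Polr2a above them at 0 h, and Polr3k, Taf4b and Med13l above them at 2 h.

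Mediator subunits changed in both directions at 0 h, and the opposite changes met in the head module, which contacts polymerase II directly. Med20 and Med11 fell, and Med8, Med22 and Med17 rose. Med20 by its brightest probe set read 7.88 and 7.90 and just under 8 in hypoxic and 8.93, 8.97 and 9.16 in normoxic retinas. Every hypoxic array was below every normoxic one, with a difference of -1.09 (SE 0.11, adjusted p = 2.99e-07), and the other Med20 probe set gave -0.96 (adjusted p = 4.39e-07). At 2 h Med20 was level with its controls, at 8.94, 9.04 and 9.12 against 9.00, 8.92 and 9.28 (-0.03, adjusted p = 0.885).

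Med11 read 7.34, 7.56 and 7.51 against 8.36, 8.21 and 8.25 at 0 h, without overlap (-0.80, SE 0.09, adjusted p = 1.13e-06), and gave 0.11 at 2 h (adjusted p = 0.468). Med8 went the other way, with 9.76, 9.72 and 9.81 in hypoxic and 9.25, 9.29 and 9.28 in normoxic retinas (0.49, SE 0.07, adjusted p = 1.95e-05). Its hypoxic values stood above all controls. Med22 was higher by 0.39 (adjusted p = 0.000955) and Med17, a central head subunit, by 0.32 (adjusted p = 0.00378). Med18, Med30 and Med6, the other head genes tested without a call, gave 0.04, -0.12 and 0.05. Med28 was called lower, at -0.26 (adjusted p = 0.0109), but not without hypoxia 0 h replicate 1 (adjusted p = 0.0689) or normoxia 0 h replicate 1 (0.0559).

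In the middle module, which links head and tail, Med7 and Med26 rose and Med19 fell at 0 h. Med7 read 9.45, 9.22 and 9.41 against 8.94, 9.03 and 8.97, with no overlap (0.38, adjusted p = 0.00192). Med26, the subunit at which elongation factors dock, gave 0.38 (adjusted p = 0.00653). Med19 read 8.97, 9.01 and 8.99 against 9.49, 9.34 and 9.42, and all hypoxic values were below all controls (-0.43, adjusted p = 0.00159). Its second probe set gave -0.04 (adjusted p = 0.811). Med10 was called at 0.22 (adjusted p = 0.0217), and the call was lost without hypoxia 0 h replicate 3 (0.127) or normoxia 0 h replicate 2 (0.0855). At 2 h the middle gene Med4 was higher, at 9.78, 9.67 and 9.68 against 9.33, 9.28 and 9.33 (0.40, adjusted p = 0.00178), after 0.03 at 0 h.

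Med27 was the scaffold and tail gene that rose, and it rose at both early time points. It read 8.95, 9.05 and 9.16 against 8.54, 8.57 and 8.70 at 0 h (0.45, adjusted p = 0.000234). At 2 h the values were 8.89, 8.90 and 8.81 against 8.38, 8.49 and 8.45 (0.43, adjusted p = 0.00146). Neither time point had overlapping values. The other 7 scaffold and tail genes were not called by their brightest probe sets, with differences at 0 h from -0.22 for Med29 to 0.25 for Med15. A dimmer probe set of Med29 read 7.16, 6.94 and 7.23 against 6.31, 6.12 and 5.99 (0.97, SE 0.18, adjusted p = 0.000364), but its normoxic mean was below the signal threshold. It was tested only through its hypoxic mean, and with the threshold higher by 1 it was not tested. A dimmer probe set of Med14, the backbone of the complex, fell by 0.41 on the log2 scale (adjusted p = 0.00118) to a hypoxic mean below the threshold, while the brightest gave -0.17 (adjusted p = 0.247).

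Med13l encodes a subunit of the kinase module, which can detach and block the contact with polymerase II. Its brightest probe set read 11.52, 11.41 and 11.53 against 10.92, 11.06 and 11.05 at 0 h (0.48, adjusted p = 0.0063). At 2 h it read 11.65, 11.23 and 11.47 against 10.99, 10.54 and 10.59, all hypoxic values above all controls (0.74, adjusted p = 0.000576), and at 4 h the values still did not overlap (0.38, adjusted p = 0.141). The second probe set gave 0.36 at 0 h (adjusted p = 0.142) and 0.85 at 2 h (adjusted p = 0.00311, and 0.0626 with the 2 h arrays fitted alone). Med12, Med12l and Med13, the related kinase module genes, were not called at any time point. Over all of Mediator, 8 of 30 genes were higher and 4 lower at 0 h (all genes 15.2% and 18.7%), and 5 were higher and none lower at 2 h (all genes 10.3% and 8.25%).

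Among polymerase subunits, 4 of 24 tested genes were higher and 4 lower at 0 h, shares near the 15.2% and 18.7% of all genes, and 4 were higher and 1 lower at 2 h, where 10.3% and 8.25% of all genes were. In polymerase II the changed genes at 0 h both rose. Polr2d, a subunit of the stalk, read 9.62, 9.53 and 9.53 against 9.19, 9.08 and 9.12 (0.43, adjusted p = 0.000249). Its hypoxic values stood clear of the controls at 0 h and were level with them at 2 h (0.01, adjusted p = 0.959). Polr2a, the largest subunit with the catalytic site and the repeated C-terminal tail, read 9.95, 9.77 and 9.91 against 9.40, 9.52 and 8.78 (0.65, SE 0.20, adjusted p = 0.0186). The lowest control, normoxia 0 h replicate 3, set much of the size: without it the difference was 0.42 (adjusted p = 0.144). The call was also lost without hypoxia 0 h replicate 1 (0.0589) or replicate 3 (0.0537), and the dimmer probe set gave 0.32 (adjusted p = 0.108).

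Polr2g, the other subunit of the stalk, gave -0.18 at 0 h with no call (adjusted p = 0.0595). Polr2b and Polr2j, subunits of the core, gave -0.19 and -0.20 (adjusted p = 0.0542 and 0.108). Of the subunits shared by all nuclear polymerases, 3 genes were tested and 1 was called lower (all genes 18.7%). Polr2k and Polr2l, which are also shared, are not among them, because their probe sets name a second gene. Polr2f read 8.98, 9.00 and 9.00 against 9.37, 9.31 and 9.38, with hypoxic values below all controls (-0.36, adjusted p = 0.00319). Its second, dimmer probe set gave -0.14 (adjusted p = 0.533). Polr2e and Polr2h gave -0.16 and 0.12.

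Polymerase III held opposite changes of neighbouring subunits. Polr3f and Polr3c belong to the subcomplex that polymerase III uses to open promoter DNA. Polr3f read 9.00, 9.28 and 9.24 against 8.20, 8.45 and 8.50 at 0 h, all hypoxic values above all controls (0.79, SE 0.17, adjusted p = 0.00122). All 4 tested probe sets of Polr3f were called higher, with differences from 0.40 to 0.79, and the call of the dimmest, which was below the threshold in normoxic retinas, was lost without hypoxia 0 h replicate 2 (adjusted p = 0.153), normoxia 0 h replicate 1 (0.0813) or normoxia 0 h replicate 3 (0.0972). Polr3d, a partner of the initiation and termination subcomplex, read 7.02, 7.24 and 7.20 against 7.69, 7.43 and 7.55 (-0.40, adjusted p = 0.00757).

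Polr3a, the largest subunit, was called lower at -0.29 (adjusted p = 0.00972), a call that did not outlast the removal of hypoxia 0 h replicate 1 (0.0672) or normoxia 0 h replicate 2 (0.0635). Polr3c was higher at both early time points. At 0 h it gave 0.27 (adjusted p = 0.0159), a call lost without hypoxia 0 h replicate 3 (0.0982) or normoxia 0 h replicate 1 (0.0704). At 2 h it read 8.46, 8.42 and 8.38 against 7.84, 8.03 and 8.07, with no overlap (0.44, adjusted p = 0.00145).

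Polr3k, the small subunit that takes part in RNA cleavage and termination, had the clearest rise of a polymerase subunit at 2 h. Its dimmest probe set read 7.81, 7.81 and 7.78 against 7.17, 6.92 and 6.92 (0.80, SE 0.13, adjusted p = 0.000392). Its brightest probe set read 9.90, 9.87 and 9.83 against 9.56, 9.31 and 9.33 (0.46, adjusted p = 0.000452), and the second by brightness read 8.94, 8.94 and 8.92 against 8.42, 7.99 and 8.41 (0.66, adjusted p = 0.00111). In these 3 probe sets all hypoxic values were above all controls. The remaining one gave 0.43 (adjusted p = 0.0228), a call lost without hypoxia 2 h replicate 1 (0.0903), hypoxia 2 h replicate 2 (0.0643) or normoxia 2 h replicate 2 (0.146). At 0 h the second by brightness was called lower (-0.35, adjusted p = 0.032), a call ended by leaving out hypoxia 0 h replicate 1 (0.186) or normoxia 0 h replicate 2 or 3 (0.121 or 0.0651), and the other 3 gave 0.02, -0.24 and -0.10 with no call.

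In polymerase I the largest subunit, Polr1a, was called lower at 0 h (-0.40, adjusted p = 0.0132) and 2 h (-0.47, adjusted p = 0.0111) on a dim probe set. It read 6.95, 6.62 and 6.51 against 6.97, 7.20 and 7.12 at 0 h, and 6.57, 6.90 and 6.59 against 6.89, 7.37 and 7.20 at 2 h, where the highest hypoxic value passed the lowest control. At 0 h the call was lost without hypoxia 0 h replicate 2 (0.051), hypoxia 0 h replicate 3 (0.0851) or normoxia 0 h replicate 2 (0.0573). At 2 h it was lost without hypoxia 2 h replicate 1 (0.0611), hypoxia 2 h replicate 3 (0.0506) or normoxia 2 h replicate 2 (0.0661). Polr1b, the second largest subunit, gave -0.06 and 0.19, and Polr1e was below the threshold.

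Polr1d, shared by polymerases I and III, read differently by probe set. The third by brightness gave 9.19, 9.23 and 9.18 in hypoxic and 9.78, 9.81 and 9.88 in normoxic retinas at 0 h (-0.63, adjusted p = 2.59e-06). Its 3 hypoxic values lay far below the controls, while the other 3 tested probe sets of Polr1d gave -0.02, 0.11 and -0.03 with no call. Polr1c, its partner in both enzymes, gave 0.04. The mitochondrial polymerase Polrmt had 2 tested probe sets. The dimmer read 8.72, 8.78 and 8.72 against 8.37, 8.34 and 8.28 at 2 h (0.41, adjusted p = 0.00161), where the brightest gave 0.17 (adjusted p = 0.351). At 0 h the dimmer was called lower, at 8.16, 8.26 and 8.15 against 8.47, 8.45 and 8.33 (-0.23, adjusted p = 0.0345), and the brightest gave -0.29 (adjusted p = 0.0728). The 0 h call of the dimmer ended when hypoxia 0 h replicate 1 or 3 (0.0914 or 0.106) or normoxia 0 h replicate 1 or 2 (0.102 or 0.0957) was left out.

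TFIID recognizes the core promoter. By brightest probe set, 3 of its 14 tested genes, Taf12, Taf6 and Taf9b, were called lower at 0 h and none higher, with a median of -0.19 over the 14. Over all genes 18.7% were lower and 15.2% higher, so the lower share of TFIID was near that of all genes. Taf12 read 8.28, 8.39 and 8.26 against 8.93, 8.80 and 8.97, with no overlap (-0.59, adjusted p = 0.000256). Taf6 read 8.26, 8.04 and 8.12 against 8.57, 8.54 and 8.64 (-0.44, adjusted p = 0.000158). Both encode histone-fold proteins of the TFIID core. Taf9b, another of these, gave -0.39 (adjusted p = 0.0128), a call lost without hypoxia 0 h replicate 3 (0.0528). Taf12 was level at 2 h (0.09, adjusted p = 0.626). Taf6 was called again at 2 h (-0.27, adjusted p = 0.0209), but not without hypoxia 2 h replicate 1 (0.126) or normoxia 2 h replicate 3 (0.107).

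Taf10 was the TFIID gene whose probe sets differed most. Its dimmer probe set read 8.24, 8.51 and 8.51 against 7.85, 7.86 and 7.82 at 0 h (0.58, adjusted p = 0.000306), and its brightest read 10.06, 10.09 and 10.07 against 10.44, 10.24 and 10.08 (-0.18, adjusted p = 0.151). The dimmer set had no overlap, and the brightest had. At 2 h they gave 0.45 (adjusted p = 0.007) and -0.21 (adjusted p = 0.14), and the call at 2 h was lost without hypoxia 2 h replicate 1 (0.0561).

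Taf4b, a TFIID subunit best known from gonadal cells, was the only member called at 4 h. At 0 h its brightest probe set read 9.82, 10.17 and 10.04 in hypoxic and 9.79, 10.13 and 10.11 in normoxic retinas, a difference of 0.00 (adjusted p = 0.99). At 2 h it read 10.43, 10.23 and 10.39 against 9.88, 9.70 and 9.77 (0.56, SE 0.10, adjusted p = 0.000884), and at 4 h 9.67, 9.82 and 9.81 against 9.17, 9.34 and 9.23 (0.52, adjusted p = 0.00902). All hypoxic values were above all controls at both times. The second probe set gave 0.62 (adjusted p = 0.00063) and 0.52 (adjusted p = 0.0124). The 4 h call of the brightest was lost without normoxia 4 h replicate 1 (0.0567), and that of the second without hypoxia 4 h replicate 1 (0.0789) or normoxia 4 h replicate 3 (0.0819). At 16 h the values of the brightest were 9.58, 9.49 and 9.39 against 9.54, 9.67 and 9.60, and they overlapped.

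SL1, which guides polymerase I to ribosomal DNA, had 1 of 4 tested genes higher at each early time point. Of all genes 15.2% were higher at 0 h and 10.3% at 2 h. Taf1d read 7.42, 7.16 and 7.21 against 6.76, 6.55 and 6.89 at 0 h (0.53, adjusted p = 0.00363). Taf1c read 8.05, 7.98 and 7.90 against 7.43, 7.52 and 7.44 at 2 h (0.52, adjusted p = 0.00191). Neither overlapped. Taf1a and Taf1b, the remaining SL1 genes, were not called.

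TFIIH, which opens the promoter and phosphorylates polymerase II and also repairs DNA, had opposite changes at 0 h. Gtf2h5, its smallest subunit, read 9.00, 9.09 and 9.07 against 9.55, 9.56 and 9.55 (-0.50, SE 0.08, adjusted p = 4e-05). The controls were nearly equal, and every hypoxic value was lower. Gtf2h1 read 9.25, 9.18 and 9.38 against 8.79, 8.92 and 8.84 (0.42, adjusted p = 0.000544). Gtf2h4 was called lower by all 3 of its tested probe sets, at -0.34, -0.46 and -0.43, and each of these calls was lost without hypoxia 0 h replicate 1 (adjusted p = 0.385, 0.111 and 0.172), as it was when normoxia 0 h replicate 3 was left out (0.0916, 0.0815 and 0.0805). The first was also lost without normoxia 0 h replicate 1 (0.0968) or replicate 2 (0.0671). At 2 h Gtf2h3 was higher, at 8.16, 7.99 and 7.86 against 7.55, 7.57 and 7.42 (0.49, adjusted p = 0.00758), a call lost without hypoxia 2 h replicate 1 (0.0539).

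Of the factors that assemble around polymerase II, TFIIF gave the clearest change. Gtf2f1, its large subunit, rose at 2 h in both probe sets. The dimmer read 9.27, 9.43 and 9.32 against 8.82, 8.89 and 8.83, with no overlap (0.50, adjusted p = 0.000437), and the brightest gave 0.40 (adjusted p = 0.0016). At 0 h they gave 0.13 and 0.08 with no call. Of the 7 tested TFIIA, TFIIB, TFIIE and TFIIF genes, 2 were higher and 2 lower at 0 h (all genes 15.2% and 18.7%). Each of these 0 h calls was lost without at least 1 array. Gtf2b, which links TFIID to the polymerase, gave 0.26 (adjusted p = 0.0229), with 0.131 once hypoxia 0 h replicate 3 was left out and 0.0584 or 0.0722 once normoxia 0 h replicate 2 or 3 was. Gtf2f2, the small TFIIF subunit, gave 0.28 (adjusted p = 0.0171, and 0.113 without hypoxia 0 h replicate 3). Gtf2e2 of TFIIE gave -0.30 (adjusted p = 0.0165), with 0.105 once hypoxia 0 h replicate 1 and 0.0984 once normoxia 0 h replicate 3 was left out. Gtf2a1 of TFIIA gave -0.23 (adjusted p = 0.0255), and 4 of the 6 arrays ended that call, hypoxia 0 h replicates 1 and 3 (0.1 and 0.0622) and normoxia 0 h replicates 2 and 3 (0.076 and 0.0994).

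TFII-I factors bind initiator elements, and their genes moved differently. Gtf2i was the member with the largest fall at 2 h. Its second probe set by brightness read 9.30, 9.50 and 9.40 against 9.91, 9.96 and 10.03, all hypoxic values below all controls (-0.57, SE 0.09, adjusted p = 0.00041), and its brightest probe set gave -0.43 (adjusted p = 0.0039). At 0 h both gave no call (-0.22, adjusted p = 0.0799, and -0.21, adjusted p = 0.0926). The related Gtf2ird1 and Gtf2ird2 were higher at 0 h, by 0.36 (adjusted p = 0.00583) and 0.28 (adjusted p = 0.00411, and 0.0542 with the 0 h arrays fitted alone), and gave 0.15 and 0.17 at 2 h with no call. A dimmer probe set of Gtf2ird1 gave -0.11 at 0 h (adjusted p = 0.408).

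Of 7 tested TFIIIA and TFIIIC genes, 1 was higher and 2 were lower at 0 h (all genes 15.2% and 18.7%). At 2 h 2 were higher and 2 lower (all genes 10.3% and 8.25%). Each of these calls was lost without at least 1 array. Gtf3c5 was called higher at 0 h (0.31, adjusted p = 0.0115; 0.104 without hypoxia 0 h replicate 3) and at 2 h (0.33, adjusted p = 0.0167; 0.0587 once hypoxia 2 h replicate 2 or 0.0564 once normoxia 2 h replicate 2 was left out).

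The effect at 0 h was set against that at later times by a test of the difference itself. The hypoxia effect differed between 0 h and 2 h in 26 of 147 member probe sets, and in 25 of them it was lower at 0 h. Over all probe sets 8.21% differed, 5.41% with the effect lower at 0 h and 2.8% with it higher. Of the 26, 11 were kept without any 1 of the 12 arrays used: 2 probe sets of Snapc3, both of Med20, Med11, Snapc1, Taf12, 1 each of Polrmt and Polr1d, and 2 of Polr3k. The count fell to 11 without hypoxia 0 h replicate 1 and to 16 without hypoxia 2 h replicate 2. The exception in direction was Polr2d, whose effect was 0.42 higher at 0 h (adjusted p = 0.0203, and 0.0603 without hypoxia 0 h replicate 1 or 0.0552 without normoxia 2 h replicate 2).

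Snapc3 and Med20 differed between 0 h and 2 h by -0.88 (adjusted p = 0.000112) and -1.06 (adjusted p = 0.000264) in their brightest probe sets. For the second probe set of Polr3k by brightness the difference was -1.01 (adjusted p = 0.000786), from a value below 0 to one above it. Taf4b differed by -0.56 in both probe sets (adjusted p = 0.0167 and 0.0222). The first of these was lost without hypoxia 0 h replicate 1 (0.0634), and the second without hypoxia 0 h replicate 1 (0.0819), hypoxia 2 h replicate 2 (0.0592), normoxia 0 h replicate 3 (0.0672) or normoxia 2 h replicate 2 (0.0705).

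**Figure D3:**
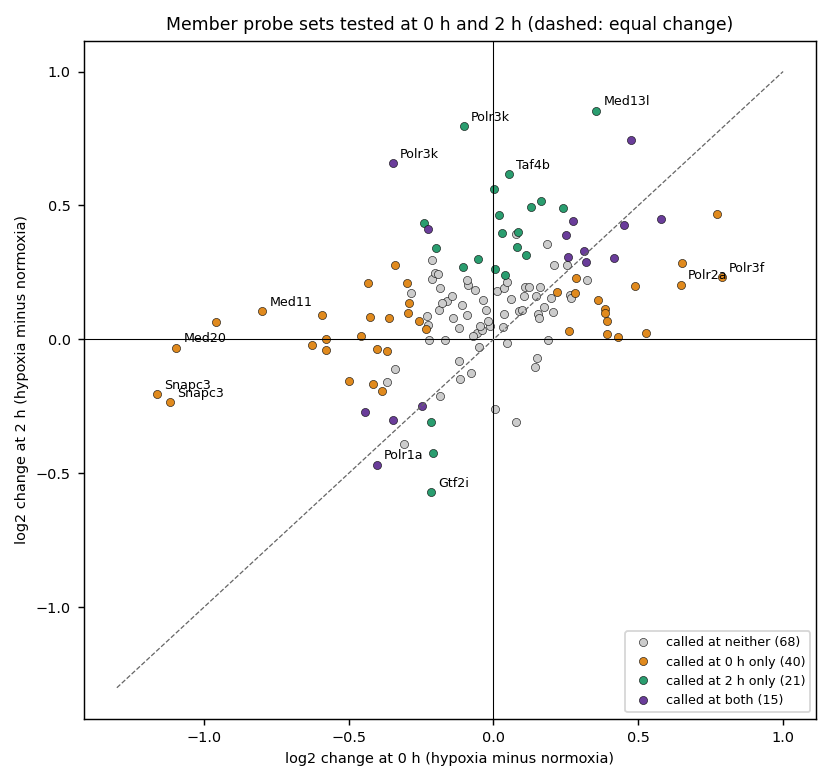
Log2 difference between hypoxic and normoxic retinas at 0 h (horizontal axis) and 2 h (vertical axis) for the 144 member probe sets tested at both times, coloured by call, and the dashed line marks equal differences. Members called at 0 h alone (40) spread to both sides, members called at 2 h alone (21) lie mostly above 0, 15 were called at both times and 68 at neither. The same classes were not counted over all probe sets.

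Over the 144 probe sets the differences at 0 h and 2 h had Pearson's r = 0.42 and Spearman's rho = 0.46, against 0.51 and 0.49 over 18288 probe sets. These are descriptions across probe sets, which share arrays and are not replicates. By brightest probe set, 7 genes were called higher and 4 lower at both times, 28 were called at 0 h alone (12 higher, 16 lower) and 13 at 2 h alone (11 higher, 2 lower). By brightest probe set no gene had opposite calls at the 2 times, but 1 dimmer probe set each of Polr3k and Polrmt was called lower at 0 h and higher at 2 h. Calls at both times or at 1 time alone were not counted over all genes or all probe sets. The 28 probe sets higher at 0 h had median differences of 0.40, 0.22, 0.09 and -0.00 at 0, 2, 4 and 16 h. The 30 lower at 0 h had medians of -0.41, 0.01, 0.09 and 0.04, and the 29 higher at 2 h had 0.08, 0.41, 0.15 and 0.01. The first value of each of these series was used in choosing the first 2 sets, and the second value in choosing the third.

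Between 0 h and 4 h the effect differed in 39 members (26.5%, against 16.9% of all probe sets), 10 with the effect higher at 0 h and 29 with it lower (all probe sets 6.37% and 10.6%). The count was 23 without hypoxia 4 h replicate 1 and 25 without hypoxia 0 h replicate 3. Between 0 h and 16 h it differed in 33 (22.4%, against 20.6%), 14 with it higher at 0 h and 19 lower (8.74% and 11.8%), and in 21 without hypoxia 0 h replicate 3. Polr2d (0.66, adjusted p = 0.000305), Med8 (0.38, adjusted p = 0.0104) and Med7 (0.47, adjusted p = 0.0112) were higher at 0 h than at 4 h by this test, and all 3 were so without any 1 array. Between 2 h and 4 h it differed in 1 member (0.694%, against 0.487%, of which 0.238% with the effect higher and 0.249% with it lower at 2 h), Polr1a, at -0.78 (adjusted p = 0.0428). That call was kept without hypoxia 2 h replicate 2 or normoxia 2 h replicate 1 and lost without any of the other 10 arrays, with adjusted p from 0.0575 without normoxia 4 h replicate 2 to 0.149 without hypoxia 2 h replicate 1.

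Some members also moved among the normoxic groups, which had no hypoxia but were collected at different times. By limma's F test 5 of 144 member probe sets differed (3.47%, against 3.54% of all probe sets), and 8 without normoxia 16 h replicate 2 or normoxia 2 h replicate 3. They were both tested probe sets of Taf4b (adjusted p = 0.00235 and 0.00338), both of Med13l (0.00399 and 0.00578) and 1 of Polr3c (0.0246, and 0.0606 without normoxia 0 h replicate 2, 0.0554 without normoxia 0 h replicate 3 or 0.0962 without normoxia 16 h replicate 3). The normoxic means of Taf4b were 10.01, 9.79, 9.25 and 9.60 at 0, 2, 4 and 16 h, and the hypoxic means 10.01, 10.35, 9.77 and 9.48. Med13l had normoxic means of 11.01, 10.71, 10.17 and 10.71 and hypoxic means of 11.49, 11.45, 10.55 and 10.67. Both genes were lowest in normoxic retinas at 4 h.

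Probe sets of 1 gene did not always give the same call. At 0 h 36 member genes had 2 or more tested probe sets, of which 22 agreed in their calls, 14 had called and uncalled probe sets together, and none had calls in opposite directions. At 2 h 29 of 34 agreed and 5 were mixed. The mixed genes with the widest spread at 0 h were Med29 (-0.22 to 0.97), Snapc3 (-1.16 to -0.23), Taf10 (-0.18 to 0.58) and Polr1d (-0.63 to 0.11).

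**Figure D4:**
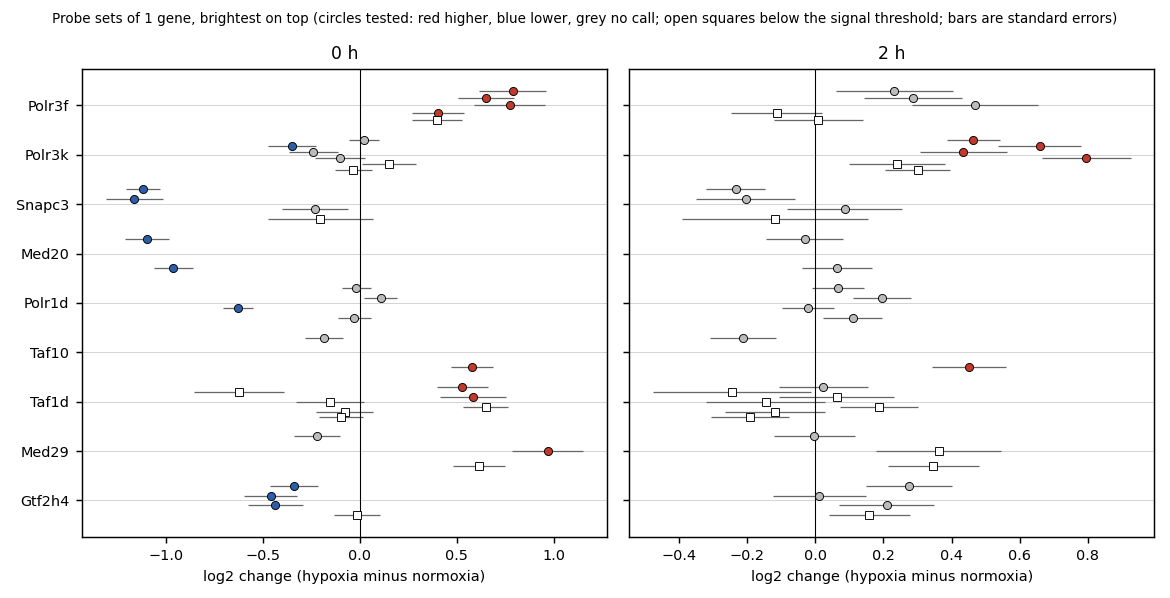
Log2 difference between hypoxic and normoxic retinas at 0 h and 2 h with its SE for every probe set of 9 genes, brightest on top. Open squares are below the signal threshold and were not tested. Polr3f probe sets move together at 0 h and Polr3k probe sets at 2 h, while Polr1d, Taf10, Med29 and Snapc3 differ by probe set.

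Members below the signal threshold at every time point were Polr1e, Polr3g, Snapc5, Taf15, Gtf2a1l, Taf7l, Taf7l2 and Med9os, which is an opposite-strand RNA of Med9 and no Mediator subunit. Gtf2a1l and Taf7l are known from germ cells. Their brightest probe sets had mean log2 signals from 3.67 for Taf7l2 to 6.44 for Polr1e. The other 99 genes were measured in all comparisons, and the highest mean, 11.2, was that of Gtf2i.

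Genes that work with these complexes under other names were listed separately, 71 in all. At 0 h 9 of 70 tested were higher and 14 lower, near the 15.2% and 18.7% of all genes, at 2 h 10 were higher and 2 lower (all genes 10.3% and 8.25%), and at 4 h and 16 h none of 68 was called. Among polymerase I subunits with other symbols, Cd3eap was higher at 0 h (0.74, adjusted p = 0.000607), but its normoxic mean of 6.38 was below the signal threshold, so it was tested only through its hypoxic mean of 7.12, and with the threshold higher by 1 it was not tested. Tfb1m, which modifies mitochondrial ribosomal RNA, was lower at 0 h (-0.73, adjusted p = 2.2e-05), as were Ctr9 of the elongation complex PAF1 (-0.56, adjusted p = 0.000151) and Ccnc, the cyclin of the Mediator kinase module (-0.49, adjusted p = 0.00288). At 2 h Leo1, another PAF1 subunit, rose by 0.65 (adjusted p = 5.35e-05) and Rpap2, which assists polymerase II assembly and removes phosphates from its tail, by 0.64 (adjusted p = 0.000186). Maf1, the repressor of polymerase III, was higher at 2 h (0.35, adjusted p = 0.00321). Tbp, the TATA-binding protein of all nuclear polymerases, gave 0.10 at 0 h and 0.35 at 2 h (adjusted p = 0.0409), a call lost without hypoxia 2 h replicate 1 (0.152), hypoxia 2 h replicate 3 (0.131), normoxia 2 h replicate 1 (0.0557) or normoxia 2 h replicate 2 (0.183).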

How the data were processed

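RNA of 24 pools of mouse retina was measured on Affymetrix mouse arrays. The deposited values are log2 signals, which the authors made with RMA (background correction, quantile normalization between arrays and summary of the probes). No version was given in the sources used here, and because the arrays were normalized to each other, a shift of all transcripts cannot be seen. The study's own gene lists were made from another summary of the arrays, which was not used here.

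The 64 control probe sets were left out, which left 45037 of 45101. A model with a mean for each of the 8 groups was fitted with limma 3.58.1 in R 4.3.3 with 16 residual degrees of freedom. Benjamini-Hochberg adjustment of p ran over every probe set tested. Testing at a given time required a hypoxic or normoxic mean of at least 6.69 on the log2 scale, the low point between the peaks of the signal distribution at 3.81 and 7.90. "Changed", "called", "higher" and "lower" mean an adjusted p under 0.05. The difference between time points and the F test among normoxic groups came from the same model. Each group had 3 pools of separate mice, so n = 3 for each mean, and the number of arrays limits the precision. The model was tested on simulated data before use.

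Gene symbols came from the array annotation, and all 214 member probe sets were matched by gene identifier with no symbol changed. A further 6 probe sets that name a second symbol beside Taf9, Polr2k, Polr2l or Med20 were not counted as members. At 0 h that of Polr2l gave -0.35 (adjusted p = 0.000766) and that of Polr2k -0.18 (adjusted p = 0.147). Those of Taf9 gave -0.64 (adjusted p = 2.21e-05), 0.27 (adjusted p = 0.00777) and -0.04 (adjusted p = 0.869). That of Med20 was below the signal threshold. Fits with 1 array left out were not looked at for these probe sets. A gene was represented by its brightest probe set. Promoter windows came from RefSeq.

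The members and lists were chosen with earlier results of these data known. Named at each time point were up to 10 rises and 10 falls of largest size without overlap, 1 per gene. Added were up to 3 changed genes of each complex and each outside list (or up to 2 of highest signal where none changed), the 5 smallest p-values of each difference and normoxic test, genes with opposite probe sets, and Snapc3 and Med20, which the study's tables name (Med20 as Trfp). Other genes named were chosen after their values were seen. Alternatives were each array left out, both arrays that stood apart left out, each time point fitted alone, replicate blocks, no signal filter or a threshold higher by 1, probe sets that may match several transcripts left out, array weights, a trended robust spread, centring, quantile normalization, the mean of a gene's probe sets, adjusted p under 0.1, and the methods' t-test.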

Additional observations from a re-analysis of the deposited data

Results flagged for a closer look

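These differences between time points in the effect of hypoxia were tested in the limma model and stand out by their size, and each value is the effect at the earlier time minus that at the later time on the log2 scale. For Snapc3, the brightest probe set gave -0.88 between 0 h and 2 h (adjusted p = 0.000112), -1.13 between 0 h and 4 h (adjusted p = 3.02e-06) and -1.20 between 0 h and 16 h (adjusted p = 1.25e-06), and the second gave -1.51 between 0 h and 16 h (adjusted p = 3.24e-05). Snapc1, in the same complex, gave -0.69 between 0 h and 16 h (adjusted p = 0.000151).

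Med20 gave -1.06, -1.09 and -1.09 against 2 h, 4 h and 16 h in its brightest probe set (adjusted p = 0.000264, 7.86e-05 and 7.25e-05). Its other probe set gave -1.02 against 2 h (adjusted p = 0.000156) and -1.07 against 4 h (adjusted p = 3.28e-05). Med11 gave -0.90 against 2 h (adjusted p = 0.000165) and -0.94 against 4 h (adjusted p = 3.94e-05).

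Among polymerase subunits, the second probe set of Polr3k gave -1.01 between 0 h and 2 h (adjusted p = 0.000786). The third probe set of Polr1d gave -0.82 against 4 h (adjusted p = 2.6e-05) and -0.68 against 16 h (adjusted p = 0.000143), while its other probe sets had no call at 0 h. All of these calls were kept without any 1 of the arrays compared. Polr1a gave -0.78 between 2 h and 4 h (adjusted p = 0.0428), and that call was lost without 10 of the 12 arrays, with an adjusted p of 0.149 without hypoxia 2 h replicate 1.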

How the results depend on the processing

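No named call reversed its direction under any alternative. With 1 array left out at a time, members higher at 0 h numbered 20 to 27 (28 with all arrays) and lower 20 to 31 (30), higher at 2 h 18 to 30 (29) and lower 2 to 7 (7), higher at 4 h 1 to 2 (2) and lower 0, and at 16 h 0. Effects that differed numbered 11 to 30 between 0 h and 2 h (26), 23 to 34 between 0 h and 4 h (39), 21 to 35 between 0 h and 16 h (33), 0 to 1 between 2 h and 4 h (1), and 4 to 8 among normoxic groups (5). With the arrays of a time point fitted alone, 19 members were higher and 20 lower at 0 h (18 of the 28 higher and 18 of the 30 lower calls were kept), 15 members were higher and 2 lower at 2 h, none was higher at 4 h, and 14 effects differed between 0 h and 2 h and 0 between 2 h and 4 h. The methods' t-test at an unadjusted p under 0.001 gave 3 higher and 10 lower at 0 h, 7 and 0 at 2 h, and 0 higher at 4 h, and after Benjamini-Hochberg 12 and 13, 1 and 0, and 0. An adjusted p under 0.1 gave 7 higher at 4 h, 9 among normoxic groups, 41 between 0 h and 2 h and 2 between 2 h and 4 h. Array weights gave 8 higher at 4 h and 2 between 2 h and 4 h, and a trended robust spread gave 5 higher at 4 h and 8 among normoxic groups. Without the signal filter 24 effects differed between 0 h and 4 h and 0 between 2 h and 4 h, and a threshold higher by 1 also gave 0 there. The cause of these changes was not tested. Under these alternatives and those of the next paragraph, calls over all probe sets were not counted.

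The study's controls were treated in parallel with the hypoxic mice. Over 12 pairs of arrays with equal replicate numbers the correlation of deviations ran from -0.227 to 0.237, with 2 above 0.1, both at 4 h. With 3 arrays in each group these correlations cannot show whether the samples were paired. With the replicate number as a block over all arrays, 29 members were higher and 31 lower at 0 h, and 30 and 6 at 2 h. With a replicate block within each time point the counts were 25 and 28 at 0 h, 25 and 4 at 2 h, 0 among normoxic groups and 0 between 2 h and 4 h. Without the 2 arrays that stood apart, normoxia 0 h replicate 2 and normoxia 16 h replicate 3, 29 members were higher and 24 lower at 0 h.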
